A study of Mus musculus with 4 samples.

Results

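The genes described here are 33 that serve protein folding, stress sensing, degradation and entry of proteins at the endoplasmic reticulum (ER). They were taken by symbol from a deposited table of 17039 genes, and all 33 were found and passed the filter on low counts. RNA was sequenced from splenic T cells of C57BL/6 mice that had received an adeno-associated virus (AAV) by injection into muscle a month before. The virus expressed interleukin-27 in 2 mice (AAV-IL-27, replicates 1 and 3) and was a control virus in 2 mice (AAV-ctrl, replicates 1 and 3). The series title names CD8+ T cells, the labels name T cells separated by magnetic sorting (MACS), and the ages of the mice are not given in the sources used here. All 4 animals carried AAV, so no library shows cells of mice without virus, and the interleukin-27 was supplied to the whole animal and not to T cells alone. The comparison asked which of these genes differ in T cells of animals with interleukin-27 delivered in this way.

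Proteins that are secreted or sit in membranes enter the ER through the Sec61 channel, fold there with the help of chaperones, and are sent back to the cytosol for destruction when folding fails. Unfolded protein is sensed by the membrane proteins ATF6, IRE1 (gene Ern1) and PERK (gene Eif2ak3). ATF6 is cut into a transcription factor, IRE1 splices the mRNA of the transcription factor XBP1, and PERK slows translation and favours synthesis of ATF4, which can induce CHOP (gene Ddit3). This unfolded protein response is known from antibody-secreting cells and is also engaged in T cells after activation. Splicing of Xbp1, cleavage of ATF6 and translation of Atf4 are not seen in counts per gene.

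A known target sequence of ATF6 and of XBP1 is the ER stress response element (ERSE), which reads CCAAT, then 9 bases of any kind, then CCACG. Promoter windows from RefSeq (GRCm38.p6, from 250 bases before to 50 bases after an annotated start) were matched to 27 of the 33 genes and searched on both strands. The ERSE was found in 8 of the 27, which were Hspa5, Hsp90b1, Calr, Canx, Pdia6, Dnajc3, Creld2 and Syvn1. It was found in 0.119% of all 32851 windows of this length, and in 37 of the 27025 genes with a window. Each match is shown with 15 bases on either side, on the strand of the gene from 5′ to 3′, because the changes of these genes are set against it further on. Capitals mark the fixed letters of the motif, which read CGTGG and ATTGG where the motif lies on the reverse strand.
Hspa5, chr2:34772010-34772058, plus strand: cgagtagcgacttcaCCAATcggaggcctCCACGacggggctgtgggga
Hsp90b1, distal, chr10:86705623-86705671, minus strand: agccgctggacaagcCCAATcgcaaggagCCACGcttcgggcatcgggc
Hsp90b1, proximal, chr10:86705518-86705566, minus strand: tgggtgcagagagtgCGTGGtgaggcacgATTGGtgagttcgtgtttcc
Calr, chr8:84847060-84847108, minus strand: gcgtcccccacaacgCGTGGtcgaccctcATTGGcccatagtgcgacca
Canx, chr11:50325785-50325833, minus strand: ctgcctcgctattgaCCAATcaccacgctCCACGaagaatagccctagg
Pdia6, chr12:17266476-17266524, plus strand: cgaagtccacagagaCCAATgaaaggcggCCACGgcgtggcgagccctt
Dnajc3, chr14:118937812-118937860, plus strand: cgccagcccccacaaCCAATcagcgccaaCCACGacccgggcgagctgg
Creld2, chr15:88819505-88819553, plus strand: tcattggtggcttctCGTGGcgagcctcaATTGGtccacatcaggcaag
Syvn1, chr19:6046517-6046565, plus strand: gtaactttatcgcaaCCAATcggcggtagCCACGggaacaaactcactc

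The 9 matches lay between 212 bases (Hsp90b1, distal) and 26 bases (Syvn1) before the start site, and 6 or 7 of the 9 bases between the fixed letters were G or C. Herpud1 held the related ERSE-II, which reads ATTGG, 1 base of any kind and CCACG, at chr8:94386362-94386402 on the plus strand.
Herpud1, ERSE-II: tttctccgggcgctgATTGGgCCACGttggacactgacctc
Dnajb11 held an ERSE-II as well, past its start site, and 0.0365% of all windows held one. The core TGACGTGG, a sequence bound by XBP1 and ATF6, was in none of the 27 genes' windows and in 0.676% of all. Dropping the last letter of the ERSE, so that it ends in CCAC, added Pdia3, Pdia4, Derl2 and Herpud1, for 12 of 27 genes against 0.365% of all windows. The window of Hspa5 is printed in full up to its start site (chr2:34771840-34772089, plus strand, GRCm38.p6), since Hspa5 is the gene in which this element is best known. It holds CCAAT or its reverse 4 times, and the capitals mark the 1 exact ERSE.
Hspa5, 250 bases: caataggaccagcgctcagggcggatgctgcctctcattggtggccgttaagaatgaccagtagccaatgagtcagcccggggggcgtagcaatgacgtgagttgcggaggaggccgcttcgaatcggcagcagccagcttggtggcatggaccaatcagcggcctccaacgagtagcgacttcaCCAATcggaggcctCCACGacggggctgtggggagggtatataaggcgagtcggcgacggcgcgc

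**Figure D1:**
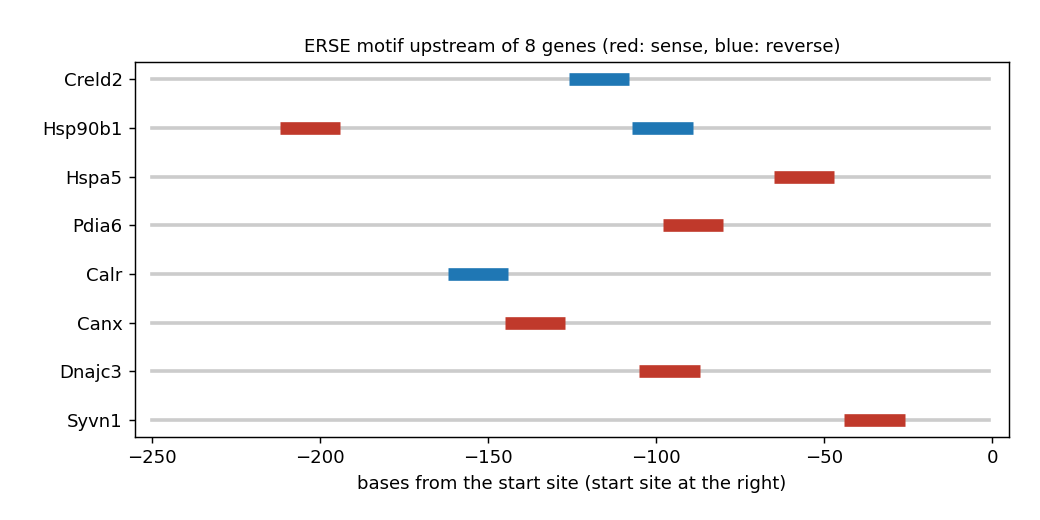
Position of the exact ERSE in the 250 bases before the start site of the 8 genes that hold it, with genes ordered by log2 fold change from the highest (Creld2) to the lowest (Syvn1). The grey line is the part of the searched window that lies before the start site. Red bars are matches on the strand of the gene and blue bars matches on the reverse strand, and Hsp90b1 is the gene with a match on each.

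The libraries held 15742523 to 16182453 counts each. Of the 12887 genes tested over the whole table, 21.3% were called higher in AAV-IL-27 and 17.7% lower (39% in all, threshold 0.05 on the adjusted p). These shares depend on the scaling. The 2745 higher and 2278 lower calls became 2362 and 2979 with upper-quartile factors, and 2363 and 2975 with library size alone. Scaling libraries to 13 T cell markers gave 1381 and 5413, a shift of -0.23 in the log2 median over all genes. In the main fit 7 of these 13 markers were called higher and 1 lower, from -0.27 (Thy1) to 0.70 (Lat). This scaling thus rests on genes that moved themselves. Of the T cell markers, Cd8a stood at 321 to 408 FPKM (counts per gene length and library size) and Cd4 at 8.21 to 10.1 FPKM, as in T cells of CD8 type. Other cells were present too. The summed level of 14 neutrophil markers was 1045 and 1717 FPKM in AAV-IL-27 and 23.0 and 33.1 FPKM in AAV-ctrl, and 13 of the 14 were called higher. Only Prtn3 of them was at 0 counts in any library. The 9 B cell markers summed to 921 and 1281 FPKM in AAV-IL-27 and to 1753 and 1995 FPKM in AAV-ctrl, with 3 of 9 called lower. Cd79a alone stood at 630 (replicate 1) and 530 FPKM (replicate 3) in AAV-ctrl, above Cd8a there. In AAV-IL-27 it stood at 251 (replicate 1) and 370 FPKM (replicate 3). Of macrophage markers 1 of 9 was higher and 5 lower, and of natural killer cell markers 1 of 6 was higher and 5 lower. All 12 cell cycle genes listed were called higher, with sums of 359 and 369 FPKM against 104 and 106 FPKM. How far these cells contribute to the values of the ER genes was not tested, and more cells of a type cannot be told apart from more RNA per cell in bulk samples.

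Of the 33 ER genes, 24 rose in AAV-IL-27, 1 fell and 8 did not pass, against the 21.3% and 17.7% of all tested genes given above. Their median log2 fold change was 0.38, where the median of all genes tested was -0.01, and 2 of them rose at least 2-fold, as did 5.25% of all genes tested. On TMM-scaled counts the groups did not overlap for 29 of the 33, against 71.5% of all genes tested. Of the latter, 35.7% had both AAV-IL-27 libraries above both controls and 35.8% had both below. Of 15 folding genes 14 rose and of 6 translocation genes 6 rose, while 3 of 6 degradation genes rose and the sensors and factors held 1 rise and 1 fall among 6. Of all counts, the 33 genes together took 0.636% (replicate 1) and 0.720% (replicate 3) with AAV-IL-27, against 0.491% and 0.495% with AAV-ctrl. Scaled to the T cell markers, 10 rose and 4 fell, with rises of 7 folding genes, 1 sensor or factor, 1 degradation gene and 1 translocation gene. Leaving out a control library lowered the rises to 16 (replicate 1) or 15 (replicate 3), and leaving out AAV-IL-27 replicate 3 gave 25 rises and 2 falls. Where a library is left out, its group keeps 1 library, which is assumed to vary like the libraries of the other group.

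**Figure D2:**
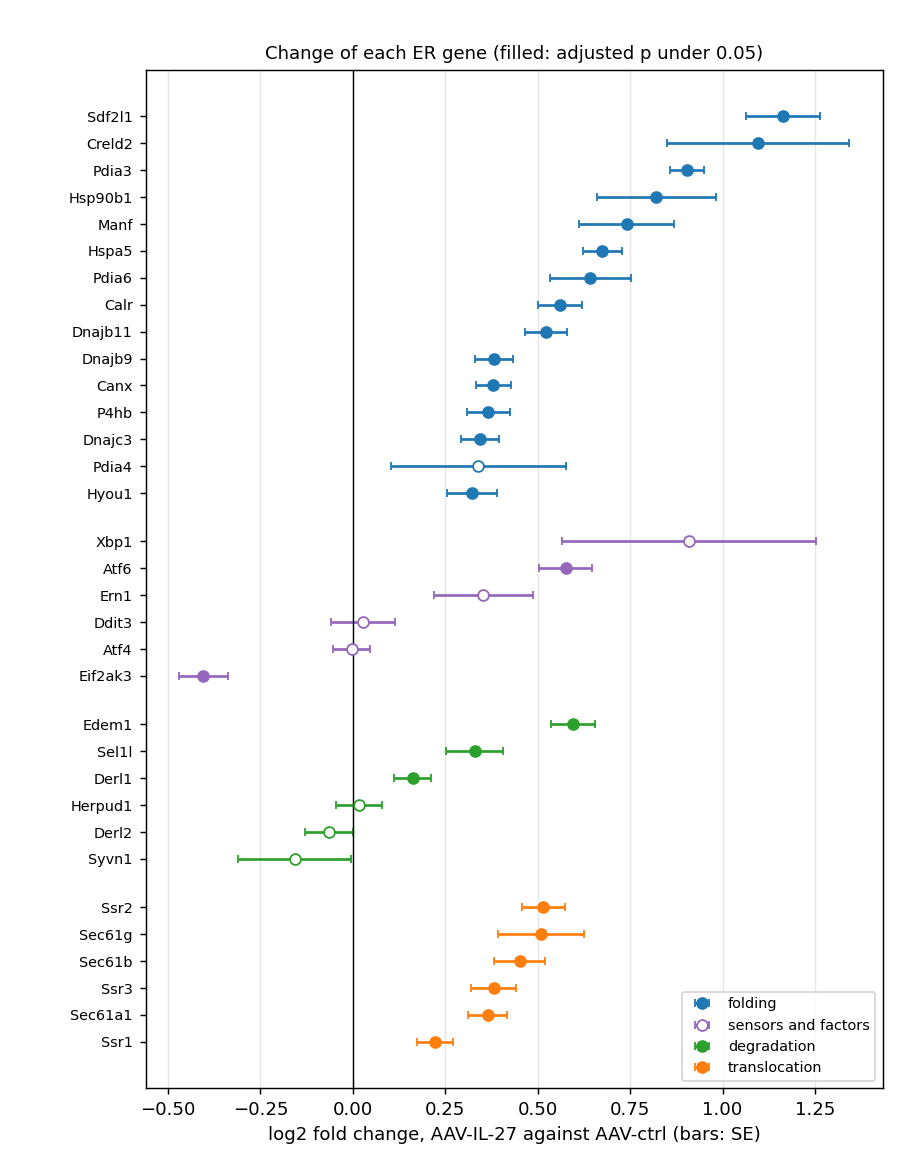
Log2 fold change of each of the 33 ER genes (horizontal axis, AAV-IL-27 against AAV-ctrl, bars are the SE of the edgeR fit), grouped by function, with filled points for genes called at an adjusted p under 0.05. The folding and translocation genes all lie to the right of 0, while the sensors and factors spread from -0.40 (Eif2ak3) to 0.91 (Xbp1).

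The folding genes of highest FPKM were Calr, Hsp90b1, Hspa5 and Pdia3, and all 4 rose. Hspa5 (NCBI Gene 14828, chromosome 2, 34772090 to 34776529) encodes BiP, the HSP70 chaperone of the ER that also holds the stress sensors inactive. Its level was 264 FPKM in replicate 1 and 289 FPKM in replicate 3 of AAV-IL-27, and 180 and 179 FPKM in the same order for AAV-ctrl, an order kept for all values that follow. Both AAV-IL-27 libraries lay above both controls, and the log2 fold change was 0.67 ± 0.053 (SE, edgeR adjusted p = 1.50e-05). Hsp90b1 (NCBI Gene 22027, chromosome 10, 86690841 to 86705444) encodes GRP94, the HSP90 chaperone of the ER, which folds integrins and Toll-like receptors. Its FPKM were 252 and 331 in AAV-IL-27 and 164 and 178 in AAV-ctrl, a log2 fold change of 0.82 ± 0.16 (adjusted p = 0.0294). The groups did not overlap, but the AAV-IL-27 libraries were far apart, and the call ended on leaving out either control (adjusted p = 0.113 for replicate 1, 0.0855 for replicate 3), on testing with no filter on low counts (0.0984) and on scaling to the T cell markers (0.101).

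Calreticulin (gene Calr, NCBI Gene 12317, chromosome 8, 84842088 to 84846931) and calnexin (gene Canx, NCBI Gene 12330, chromosome 11, 50293957 to 50325673) bind the sugars of young glycoproteins. Calr had the highest FPKM of the 33 genes, 381 and 430 in AAV-IL-27 and 286 and 283 in AAV-ctrl. It rose by 0.56 ± 0.060 on the log2 scale (adjusted p = 0.000129). Canx rose less, from 62.7 and 63.6 to 77.4 and 81.2 FPKM (0.38 ± 0.048, adjusted p = 0.000302), and scaling to the T cell markers ended its call (0.15, adjusted p = 0.112). Pdia3 (NCBI Gene 14827, chromosome 2, 121413902 to 121438687), the disulfide isomerase that works with these lectins, went from 144 and 146 FPKM to 258 and 266 FPKM (adjusted p = 9.46e-07), a 1.87-fold difference with little spread within the groups. Calr and Pdia3 also belong to the complex that loads peptides on MHC class I, and 3 further genes of it that were looked up were higher too, with Tap1 at 0.93 ± 0.066, Tapbp at 0.45 ± 0.053 and B2m at 0.40 ± 0.040.

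The other disulfide isomerases were less uniform. P4hb, the founding protein disulfide isomerase, stood at 89.1 and 98.9 FPKM against 76.4 and 74.5 FPKM (0.37 ± 0.058, adjusted p = 0.0011), a call that scaling to the T cell markers ended (adjusted p = 0.159). Pdia6, an isomerase that also acts on IRE1, stood at 61.3 and 76.9 FPKM against 46.2 and 45.6 FPKM (0.64 ± 0.11, adjusted p = 0.00674). Leaving out either control ended the call of Pdia6 (adjusted p = 0.0611 for replicate 1, 0.0645 for replicate 3). Pdia4, an isomerase found in complexes with BiP, did not pass at all (0.34 ± 0.24, adjusted p = 0.371). Its FPKM were 83.0 in AAV-IL-27 replicate 1, within the 81.5 and 85.7 of the controls, and 121 in AAV-IL-27 replicate 3. On TMM-scaled counts AAV-IL-27 replicate 1 lay just above both controls, at 0.04 over their mean on the log2 scale. With that first library left out, Pdia4 was at 0.59 (adjusted p = 8.37e-05), so its call was set by which of these libraries was used.

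The partners of BiP included the gene with the largest fold of the 33. Sdf2l1 (NCBI Gene 64136, chromosome 16, 17130138 to 17132383), which joins Dnajb11 in keeping clients of BiP soluble, went from 11.5 and 10.8 FPKM to 22.8 and 25.5 FPKM. This was the highest fold of the set, 2.24-fold (log2 1.16 ± 0.10, adjusted p = 2.60e-05), and it was lost under none of the 11 alternatives tried. Dnajb11 itself, a J-domain cochaperone, went from 42.1 and 44.98 FPKM to 58.6 and 62.1 FPKM (0.52 ± 0.057, adjusted p = 0.000116). The J-domain proteins Dnajb9, which restrains IRE1, and Dnajc3, which restrains PERK and recruits BiP to clients, rose by 0.38 ± 0.051 and 0.34 ± 0.052. Dnajb9 stood at 53.2 and 52.7 FPKM against 41.8 and 42.4 FPKM, and Dnajc3 at 36.5 and 38.9 FPKM against 30.3 and 31.2 FPKM. Scaling to the T cell markers ended both calls (adjusted p = 0.137 and 0.235).

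Creld2 (NCBI Gene 76737, chromosome 15, 88819646 to 88826681) and Manf (NCBI Gene 74840, chromosome 9, 106888753 to 106891938) encode small secreted proteins known as markers of ER stress. Creld2 stood at 23.0 and 35.2 FPKM in AAV-IL-27 and at 13.7 and 14.4 FPKM in AAV-ctrl (1.10 ± 0.25, adjusted p = 0.0352). Manf stood at 32.9 and 42.7 FPKM against 23.5 FPKM in both controls (0.74 ± 0.13, adjusted p = 0.00719). In both genes AAV-IL-27 replicate 3 was well above replicate 1, and both were above the controls. Both calls ended on leaving out either control, with adjusted p = 0.188 (replicate 1) and 0.169 (replicate 3) for Creld2 and 0.0760 and 0.0733 for Manf. Creld2 also lost its call with no filter on low counts (adjusted p = 0.114) and scaled to the T cell markers (0.157). Hyou1, the exchange factor that frees BiP from its nucleotide, had the smallest rise of the folding genes, from 23.1 and 23.3 FPKM to 26.1 and 29.9 FPKM (0.32 ± 0.068, adjusted p = 0.00545). Its call ended on leaving out either control (adjusted p = 0.0709 for replicate 1, 0.0587 for replicate 3) and on scaling to the T cell markers (0.363).

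**Figure D3:**
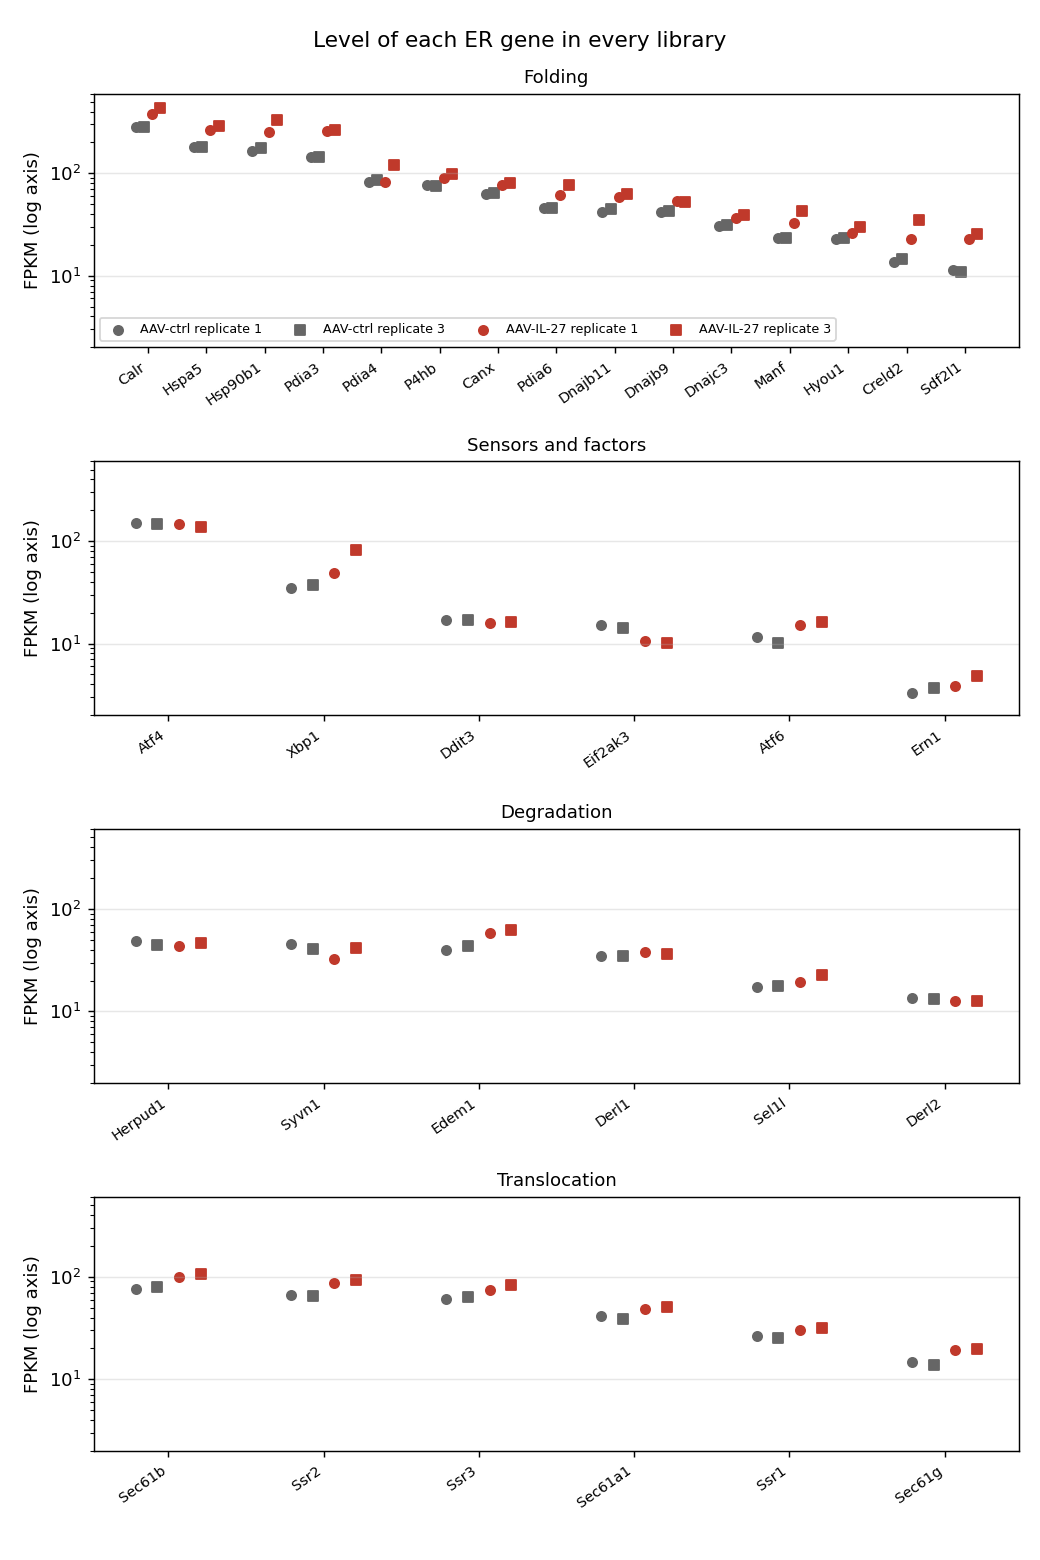
FPKM of each ER gene in every library on a log axis, by function, with grey points for AAV-ctrl and red points for AAV-IL-27 (circles replicate 1, squares replicate 3). The controls lie close together for most genes, and in Pdia4, Creld2 and Xbp1 the AAV-IL-27 libraries lie far apart.

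The sensors did not move together. Atf6 (NCBI Gene 226641, chromosome 1, 170704457 to 170868585) rose from 11.6 and 10.1 FPKM to 15.04 and 16.19 FPKM (0.58 ± 0.072, adjusted p = 0.000341), and was called under each of the 11 alternatives. Eif2ak3 (NCBI Gene 13666, chromosome 6, 70844484 to 70905241), the gene of PERK, fell from 15.02 and 14.09 FPKM to 10.7 and 10.2 FPKM. With a log2 fold change of -0.40 ± 0.066 (adjusted p = 0.00125) it was the 1 gene of the 33 called lower, under every alternative as well. Ern1, the gene of IRE1, had the lowest level of the set, 3.81 and 4.86 FPKM against 3.31 and 3.71 FPKM (0.35 ± 0.13, adjusted p = 0.066). Ern1 missed the threshold, and passed without AAV-IL-27 replicate 1 (adjusted p = 0.00996) and without the filter on low counts (adjusted p = 0.0450).

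The transcription factors below the sensors differed as well. Xbp1 (NCBI Gene 22433, chromosome 11, 5520641 to 5525993) stood at 49.2 FPKM in AAV-IL-27 replicate 1, 81.2 FPKM in AAV-IL-27 replicate 3, and 34.6 and 37.6 FPKM in the controls. The groups did not overlap, but the AAV-IL-27 libraries were 1.65-fold apart, and the fit did not call the gene (0.91 ± 0.34, adjusted p = 0.175). DESeq2 called it (adjusted p = 0.0454). So did the fits that left out an AAV-IL-27 library, at 0.50 ± 0.066 (adjusted p = 0.000684) with replicate 3 left out and 1.23 ± 0.061 (adjusted p = 4.45e-06) with replicate 1 left out, but these take the spread between libraries from the controls and do not see the gap between the AAV-IL-27 libraries. Atf4, the factor translated when PERK is active, did not pass and was almost level, with expected counts of 3571 and 3401 against 3564 and 3503 (0.00 ± 0.049, adjusted p = 0.971). Scaled to the T cell markers, Atf4 was called lower (-0.23, adjusted p = 0.013). Ddit3, the gene of the pro-apoptotic factor CHOP, had 325 and 327 expected counts against 319 and 329 (0.03 ± 0.086, adjusted p = 0.829), and the groups overlapped. The sign of Ddit3 turned under the other scalings, with -0.02 for library size alone and -0.20 scaled to the T cell markers.

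Degradation genes split into those that rose and those that did not pass. Edem1 (NCBI Gene 192193, chromosome 6, 108824045 to 108859356), which hands misfolded glycoproteins to disposal, rose from 39.8 and 43.5 FPKM to 58.3 and 62.6 FPKM (0.60 ± 0.060, adjusted p = 7.91e-05). Sel1l, the adaptor of the ubiquitin ligase HRD1, stood at 19.4 and 22.9 FPKM against 17.3 and 17.5 FPKM (0.33 ± 0.077, adjusted p = 0.0111). The call of Sel1l ended on leaving out either control (adjusted p = 0.105 for replicate 1, 0.089 for replicate 3), on scaling to the T cell markers (0.346) and by limma on log2(FPKM + 1) (0.0574). Syvn1, the gene of HRD1 itself, stood at 32.5 and 41.9 FPKM against 45.9 and 40.7 FPKM and was not called (-0.16 ± 0.15, adjusted p = 0.486). Its groups overlapped, and it was called lower without AAV-IL-27 replicate 3 (-0.36, adjusted p = 0.00719) and not without replicate 1 (0.02, adjusted p = 0.846).

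The derlins, which form the channel out of the ER, gave small differences. Derl1 stood at 37.8 and 36.6 FPKM against 34.4 in both controls (0.16 ± 0.049, adjusted p = 0.0284). This call was lost under 8 of the 11 alternatives, and its sign turned when scaled to the T cell markers (-0.07). Among these 8 were the fits that left out AAV-IL-27 replicate 1 (adjusted p = 0.0702) or either control (0.169 for replicate 1, 0.160 for replicate 3). Derl2 stood at 12.6 FPKM in both AAV-IL-27 libraries and at 13.5 and 13.2 FPKM in the controls (-0.06 ± 0.064, adjusted p = 0.467), and was called lower only when scaled to the T cell markers (adjusted p = 0.0105). Herpud1, an ER membrane protein that organises the HRD1 complex, stood at 43.7 and 46.8 FPKM against 48.3 and 44.4 FPKM (0.02 ± 0.063, adjusted p = 0.863). The groups of Herpud1 overlapped, and scaled to the T cell markers it was called lower (-0.21, adjusted p = 0.0404).

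The translocation genes rose by similar, small factors, from 0.22 to 0.52 on the log2 scale. Sec61a1, the pore of the Sec61 channel, stood at 48.7 and 50.6 FPKM against 41.2 and 38.6 FPKM (0.37 ± 0.053, adjusted p = 0.000682). The small subunit gene Sec61b (NCBI Gene 66212, chromosome 4, 47474661 to 47483233) stood at 99.3 and 107 FPKM against 76.2 and 79.7 FPKM (0.45 ± 0.069, adjusted p = 0.000898). Sec61g, the other small subunit, stood at 19.3 and 19.7 FPKM against 14.6 and 13.8 FPKM (0.51 ± 0.12, adjusted p = 0.00739). The call of Sec61g ended on leaving out either control (adjusted p = 0.0519 for replicate 1, 0.0835 for replicate 3) and by DESeq2 (0.0686). Ssr1, Ssr2 and Ssr3 encode subunits of the translocon-associated protein complex, which sits beside the channel. Ssr2 rose most of the 6, from 65.7 and 65.6 FPKM to 87.2 and 93.9 FPKM (0.52 ± 0.058, adjusted p = 0.000138). Ssr3 stood at 73.6 and 82.3 FPKM against 60.7 and 63.3 FPKM (0.38 ± 0.061, adjusted p = 0.00121), and Ssr1 at 30.2 and 31.5 FPKM against 26.4 and 25.4 FPKM (0.22 ± 0.048, adjusted p = 0.00577). Leaving out AAV-ctrl replicate 3 ended the call of Ssr1 (adjusted p = 0.0923). In each of the 6 genes both AAV-IL-27 libraries lay above both controls. Scaled to the T cell markers, Ssr2 alone of the 6 was called, and Ssr1 stood at -0.01.

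**Figure D4:**
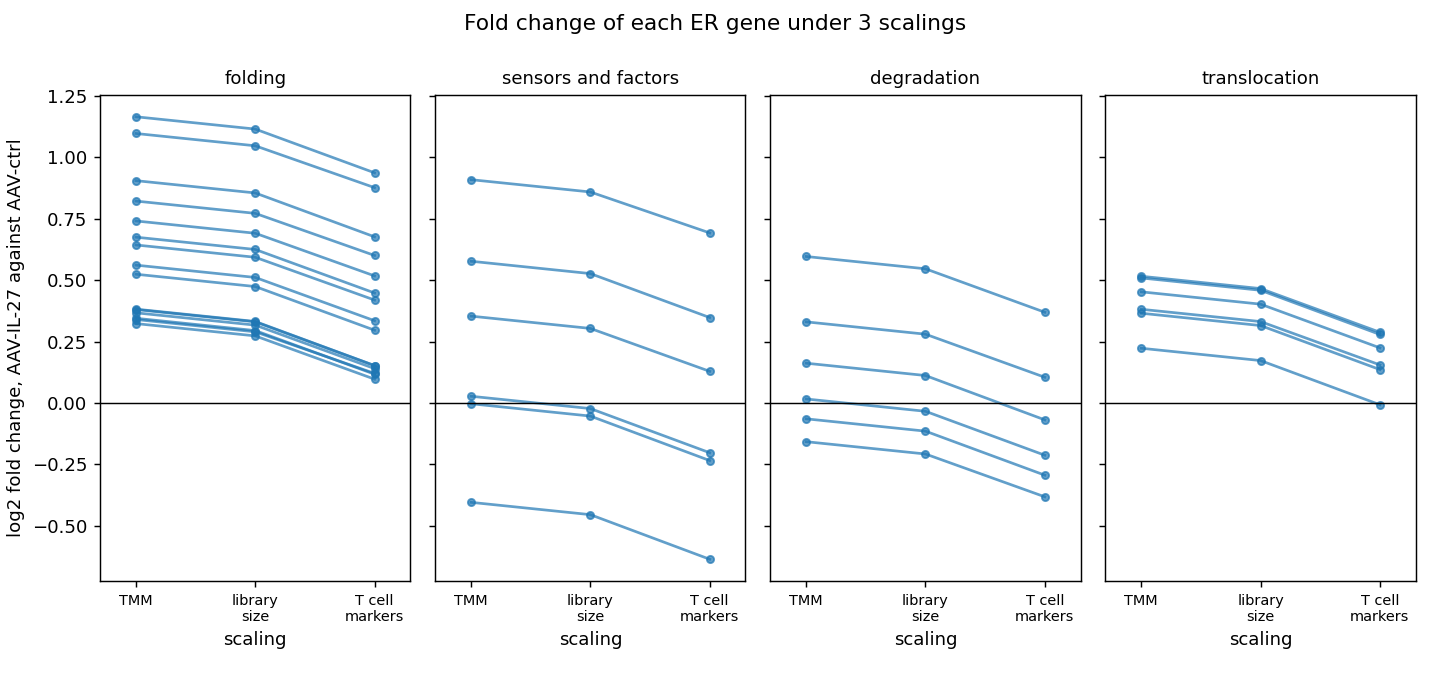
Log2 fold change of each ER gene (vertical axis) with TMM factors, with library size alone and with libraries scaled to 13 T cell markers, by function, 1 line per gene. All lines drop in parallel, and with the T cell markers the folding genes stay above 0 while Ssr1 and Derl1 pass below it. Ddit3 and Herpud1 are below 0 with library size alone already.

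The AAV-IL-27 libraries differed from each other in these genes. Replicate 3 exceeded replicate 1 in 29 of the 33 (median log2 ratio 0.10, against 0.00 for all genes tested), while in the controls replicate 3 exceeded replicate 1 in 18 of the 33. The gap was above 0.2 for 9 genes, which were Xbp1, Creld2, Pdia4, Hsp90b1, Syvn1, Manf, Ern1, Pdia6 and Sel1l. Markers of several other cell types were also higher in replicate 3. Neutrophil sums were 1045 and 1717 FPKM in replicates 1 and 3, and B cell sums were 921 and 1281 FPKM. Erythroid sums were 40.9 and 76.7 FPKM. Macrophage sums were 162 and 215 FPKM, of which Lyz2 alone held 89.7 and 143 FPKM. The other macrophage markers went both ways, with Csf1r at 6.7 and 9.97 FPKM and Cd68 at 41.0 and 33.8 FPKM. Natural killer cell sums were lower in replicate 3, at 149.5 and 122.3 FPKM, of which Gzma alone held 139 and 112 FPKM. The other natural killer cell markers went both ways. Klra4 and Klre1 were lower in replicate 3, while Ncr1 (1.62 and 2.25 FPKM), Klrb1c (1.26 and 1.3) and Klra8 (1.22 and 1.53) were higher. The T cell markers summed to 3561 and 3169 FPKM. Plasma cells are the antibody-secreting cells that depend on XBP1. All 7 plasma cell markers in the table were higher in AAV-IL-27 replicate 3 than in replicate 1, and their summed level was 629 FPKM there, 299 FPKM in replicate 1, and 256 and 287 FPKM in the controls. Between the AAV-IL-27 libraries the log2 gap ran from 0.59 (Pou2af1) to 1.29 (Tnfrsf17). In the controls Pou2af1 was lower in replicate 3 (-0.11), and the rest were higher there too, by 0.04 (Mzb1) to 0.55 (Jchain). None of the 7 markers was at 0 in any library, and 2 of the 7, Sdc1 and Fkbp11, were called higher. A large part of the control sums was Pou2af1, at 115 and 106 FPKM there. It stood at 67.7 FPKM in AAV-IL-27 replicate 1 and 102 FPKM in replicate 3. Jchain, the joining chain of secreted antibody, stood at 166 and 403 FPKM in AAV-IL-27 and at 77.2 and 113 FPKM in AAV-ctrl, and Mzb1, an ER cofactor of antibody secretion, at 52.2 and 98.5 FPKM against 57.1 and 58.7 FPKM. Of 17 plasma cell symbols looked for, 7 were found, and the immunoglobulin constant region genes among the 17 were not found under their symbols.

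Against the mean of the controls, the plasma cell markers of AAV-IL-27 replicate 1 were mixed. Jchain was 0.88 higher on the log2 scale, Derl3 0.80, Fkbp11 0.72, Sdc1 0.41 and Tnfrsf17 0.05, while Mzb1 stood at -0.11 and Pou2af1, which B cells express as well, at -0.65. Of the 33 ER genes, 29 lay above the mean of the controls in replicate 1 and 30 in replicate 3. The median difference was 0.34 in replicate 1 and 0.50 in replicate 3. For the folding genes these medians were 0.47 and 0.65, with all 15 above the control mean in each library, and for the translocation genes 0.37 and 0.48, with all 6 above it. Pdia3 differed by 0.88 and 0.92 from the control mean in replicates 1 and 3, and Sdf2l1 by 1.05 and 1.21. For Pdia4 these differences were 0.04 and 0.59. What part plasma cells or the other cells had in the values of either library was not tested.

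**Figure D5:**
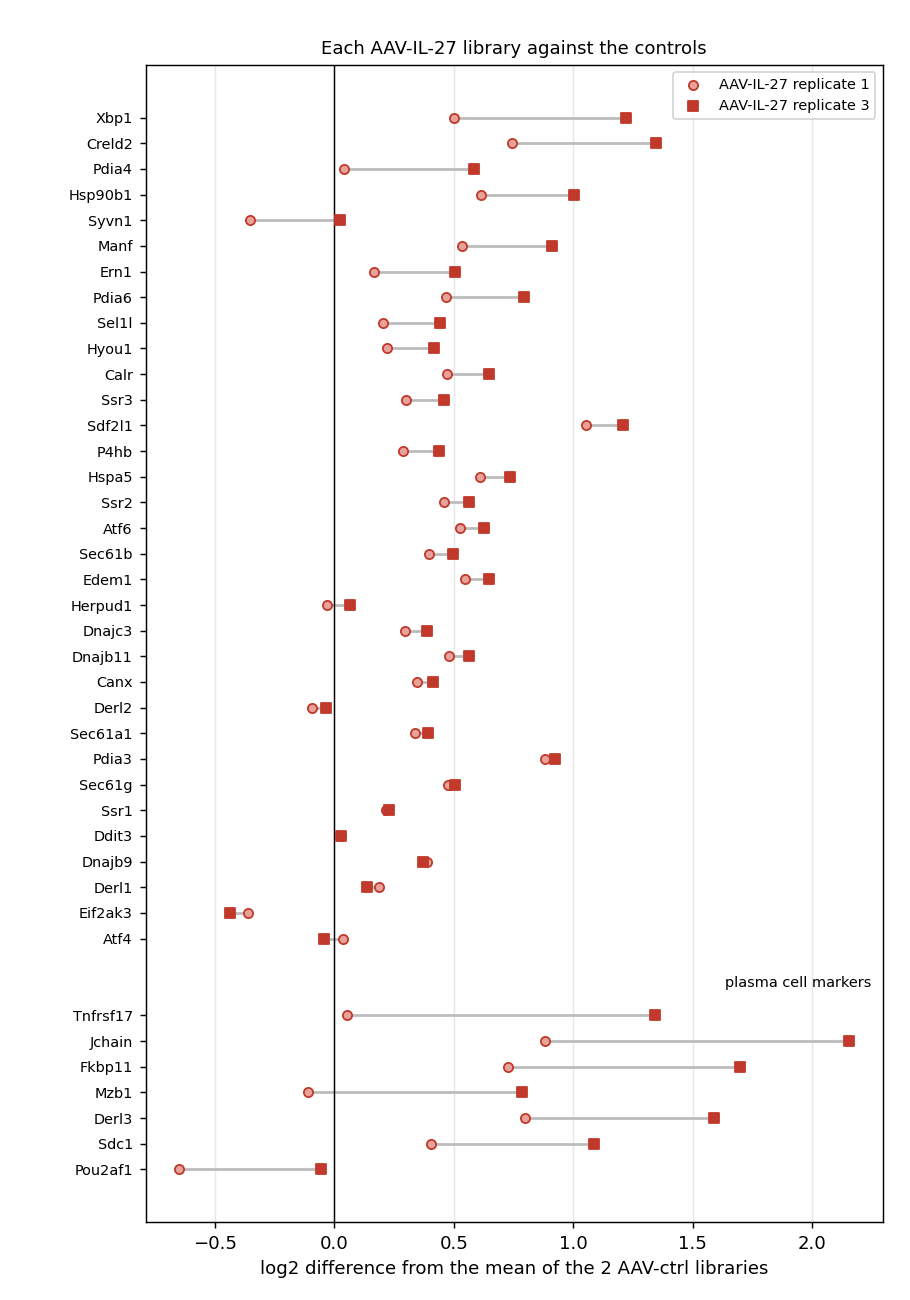
Difference of each AAV-IL-27 library from the mean of the 2 AAV-ctrl libraries on the log2 scale (horizontal axis, TMM-scaled CPM plus 0.5), for the 33 ER genes ordered by the gap between the libraries and for 7 plasma cell markers. Xbp1, Creld2 and Pdia4 have the widest gaps among the ER genes (0.72, 0.61 and 0.54), and all 7 markers lie further right in replicate 3.

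Set against the promoter matches, 7 of the 8 genes with an exact ERSE rose and Syvn1 did not pass (median log2 fold change 0.60, from -0.16 to 1.10). Of the 19 matched genes without one, 11 rose, 1 fell and 7 did not pass (median 0.37, from -0.40 to 1.16), and Sdf2l1, Pdia3 and Edem1 were among those that rose. The contrast was not seen with the last letter of the ERSE dropped. Of the 12 genes with that shorter motif 8 rose and 4 did not pass, where 18 of all 27 matched genes rose. Of the 2 genes with an ERSE-II, 1 rose and 1 did not pass. Outside the 33, the exact ERSE was in the windows of 29 genes. Of these 10 were tested, and 2 rose (median 0.09). The 8 genes had been chosen for their roles at the ER, and a match in a window does not show that a factor bound there.

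Other genes of the same pathway, listed from general knowledge, gave shares of rises between 27.6% and 50%, beside 21.3% of all genes tested in the main fit. In the fits that leave out a control library, fewer of all genes tested were called higher too. Of 28 tested folding enzymes and cochaperones, 8 (28.6%) rose and none fell (median 0.14), with 4 rises on leaving out AAV-ctrl replicate 1, 5 on leaving out AAV-ctrl replicate 3 and 2 scaled to the T cell markers. Uggt1, which checks glycoprotein folding, rose by 0.52 ± 0.053, Prkcsh, a subunit of glucosidase II, by 0.39 ± 0.056, and Mlec, a lectin of early glycoproteins, by 0.37 ± 0.049. Txndc5, an isomerase abundant in plasma cells, stood at 65.0 and 104 FPKM against 49.7 and 49.4 FPKM and did not pass (0.82 ± 0.31, adjusted p = 0.174). It was named after its values were seen. Of 30 genes for signal recognition, translocation, signal peptide cleavage and N-glycan transfer, 15 (50%) rose and none fell (median 0.16), but 7 rose on leaving out AAV-ctrl replicate 1, 9 on leaving out replicate 3 and 1 when scaled to the T cell markers. The 3 with the smallest p were Rpn1 (up by 0.64 ± 0.065), Stt3a (0.39 ± 0.056) and Ddost (0.39 ± 0.054), which encode subunits of the oligosaccharyltransferase. Other subunits of that enzyme, named after their values were seen, were split. Rpn2 (0.33), Ostc (0.37) and Ost4 (0.24) rose as well. Stt3b (-0.04), Tusc3 (-0.03), Magt1 (0.07), Dad1 (0.12), Krtcap2 (0.16) and Tmem258 (0.25) did not pass.

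Of 29 other degradation genes 8 (27.6%) rose and 1 fell (median 0.07), with 2 rises on leaving out AAV-ctrl replicate 1 and 4 on leaving out replicate 3. Ube2g2, a ubiquitin-conjugating enzyme of ER degradation, rose by 0.61 ± 0.070 and Vcp, the ATPase that pulls proteins from the membrane, by 0.44 ± 0.045. Fam8a1, a partner of HRD1, fell by 0.53 ± 0.079. Of 24 tested genes of the stress response, 9 (37.5%) rose and 2 fell (median 0.16), with 3 rises without AAV-ctrl replicate 1. Psat1, a serine synthesis enzyme known as a target of ATF4, rose by 0.92 ± 0.075 (adjusted p = 1.92e-05). Cebpb, a partner of ATF4 and CHOP, rose by 0.81 ± 0.16 (adjusted p = 0.00353), a call that ended on leaving out AAV-ctrl replicate 1 (adjusted p = 0.0528). Eif2s1, the translation factor that PERK phosphorylates, rose by 0.43 ± 0.051. Of further ATF4 targets, named after their values were seen, Chac1 had 28 and 44 expected counts in AAV-IL-27 against 1 and 8 in AAV-ctrl, and Asns 45 and 68 against 13 and 27. Trib3 had 8 expected counts in both AAV-IL-27 libraries against 13 and 12 and was not called (adjusted p = 0.310). Chac1, Asns and Trib3 are near the lower end of what was tested. Of the 24 stress response genes, 13 were not called. Among these, also named after their values were seen, were Ddit4 (-0.57 ± 0.47), Nupr1 (1.00 ± 0.49), Sesn2 (0.32 ± 0.19), Atf5 (0.14 ± 0.16) and Ppp1r15a (0.10 ± 0.073).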

How the data were processed

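RNA of splenic T cells from 4 mice was sequenced, with poly(A) RNA given as the molecule and a library step spelled rNNA removal, read here as removal of rRNA, per the labels. The deposited table holds, for each gene, expected counts of every library (64.9% to 65.1% of them whole). It also holds a second deposited value that was taken as FPKM because its ratio to the count differs between libraries as the summed counts do. The header does not name its unit. Per the submitters' processing notes, the build was GRCm38.p6, RSEM was 1.2.12, DESeq2 was 1.4.5, Bowtie2 was 2.2.5 and HISAT2 was 2.0.4. Whether counting used strand was not given in those sources. The spans of 13 of the 33 genes overlap another gene, and 6 (Dnajb11, Ddit3, Syvn1, Derl2, Sec61g and Ssr1) had counts that were not whole, so their values may hold shared reads.

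Expected counts were rounded, filtered with filterByExpr (12887 of 17039 genes kept), scaled by TMM and compared with edgeR 4.0.16 (quasi-likelihood, robust, two-sided, no block) in R 4.3.3, taking p-values adjusted by Benjamini-Hochberg across the 12887 genes and calling those under 0.05. SE is the size of the log2 fold change divided by the square root of F. The fit was tested on simulated data. Replicates are separate mice, per the labels. FPKM describe levels only. Alternatives used DESeq2 1.42.0, limma 3.58.1 on log2(FPKM + 1), other scalings, no filter, a block and each library left out. Named beside the 33 genes are the 3 with the smallest p of each further list, Tap1, Tapbp, B2m and markers. Further genes of those lists were named after their values were seen, as stated where they are given. The genes and lists were chosen with earlier results of these data known. Coordinates and promoters are from RefSeq tables of GRCm38.p6.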

Additional observations from a re-analysis of the deposited data

How the results depend on the processing

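The number of all genes called, 5023, was 3243 by DESeq2 and ranged from 2635 to 4886 with 1 library left out. Scaled to the T cell markers, the ER genes gave 10 rises and 4 falls. Those rises were of 7 folding genes, 1 sensor or factor, 1 degradation gene and 1 translocation gene. At the same scaling the further lists gave rises of 2 (folding), 5 (stress response), 2 (degradation) and 1 (translocation). With 1 library left out, rises among the 33 genes ranged from 15 to 26 and falls from 1 to 2. The rises were 9 to 15 for folding, 1 to 3 for sensors and factors, 1 to 3 for degradation and 4 to 6 for translocation genes, and in the further lists 4 to 11 (folding), 3 to 9 (stress response), 2 to 8 (degradation) and 7 to 16 (translocation). Sensors and factors gave 2 rises by DESeq2, without the filter and with the replicate block, and degradation gave 1 by limma. The further degradation list gave 4 by DESeq2 and by limma and 5 with upper-quartile factors or library size alone. The cause of these moves was not tested, beyond fewer samples in the fits with a library left out.

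Signs turned for 6 genes near 0 or small. With 1 library left out, Atf4 ranged from -0.040 to 0.034 (0.0047 for AAV-ctrl replicate 1), Ddit3 from -0.0016 to 0.055, Herpud1 from -0.044 to 0.077 (-0.034 for AAV-IL-27 replicate 3) and Syvn1 from -0.36 to 0.021. Ddit3 was -0.023 with upper-quartile factors and with library size alone, -0.20 scaled to the T cell markers and -0.070 by limma. Herpud1 was -0.034 with upper-quartile factors, library size alone and limma, and -0.21 scaled to the T cell markers. Derl1 (-0.069) and Ssr1 (-0.0070) turned when scaled to the T cell markers. The replicate block called 4971 genes and 25 of the 33 higher, the added gene being Ern1 (0.35, adjusted p = 0.0356). The numbers do not pair the samples (correlation of same-numbered deviations -0.01 over 12887 genes). With 2 libraries per group the spread within AAV-IL-27 limits what could be called.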
